A study of Arabidopsis thaliana with 8 samples.

Results

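The RNA of inflorescences of the debranching mutant dbr1-2 of Arabidopsis thaliana was compared with that of wild-type Col-0, in libraries that had not been digested with RNase R. The comparison covers 13584 of the 32232 loci in the table, those with at least 1 FPKM (fragments per kilobase of transcript, scaled to the mapped fragments of a library) in at least 2 of these 4 libraries. Both genotypes are of the Columbia ecotype and grew at 22 °C in a cycle of 16 h light and 8 h dark, and each is represented by 2 libraries of total RNA from which ribosomal RNA had been removed. The labels name the mutant allele without describing its lesion, and they give neither the age of the plants nor the hour at which tissue was collected. Names of the sequencing runs mention a removal of mRNA as well, and replicate 1 of both genotypes carries the tag of a run on lane 6 and replicate 2 that of another run, on lane 1. Nothing in the labels says that the libraries of a genotype came from separate plants, so p-values here may reflect only the technical spread.

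DBR1 encodes the lariat debranching enzyme. When an intron is spliced out it is released as a lariat, a loop closed by a 2′-5′ bond at the branchpoint, and DBR1 opens that bond so that the intron can be degraded or processed further. Without the enzyme lariats persist, and in plants the excised introns and the small RNAs made from them have been the main interest of such mutants. Here the level of every locus was read per gene, so that the values describe the transcript population around the defect rather than the lariats themselves.

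The targeted gene was low in all libraries. DBR1 (AT4G31770, chromosome 4 from 15370061 to 15372942 on the minus strand, TAIR10.1) stood at 0.662 and 0.694 FPKM in Col-0 and at 0.339 and 0.430 FPKM in dbr1-2. Both mutant libraries lay below both wild-type libraries, but all values were under the minimum of 1 FPKM, so DBR1 is not among the 13584 loci. Fitted without that minimum it was lower in dbr1-2 (log2 fold change −0.28, SE 0.05, limma adjusted p = 0.0306).

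Low values came in steps of whole reads, and 1 FPKM on 1 kb of transcript (of the length left once the fragment size is allowed for) was worth 74.7 to 89.9 reads per library. A count of 3 reads on such a transcript corresponds to 0.0334 to 0.0402 FPKM. The FPKM of a library summed to between 295494 and 384482. Floral organ genes that define an inflorescence were present in both genotypes: AP3, a petal and stamen identity gene, had a level of 10.6 and 9.44 FPKM in Col-0 and 9.98 and 8.66 in dbr1-2, and AG, the stamen and carpel identity gene, at 3.92 and 4.28 against 3.83 and 3.89. None of 11 seed storage and embryo genes reached the minimum, and their summed level was 0.242 to 0.354 FPKM in Col-0 and 0.370 to 0.372 in dbr1-2, with CRU2, SESA1 and SESA3 at 0 in all 4 libraries. In such bulk tissue, fewer cells of a type and less RNA per cell cannot be told apart.

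More transcripts were higher than lower in the mutant. At a limma adjusted p under 0.05, 2017 of the 13584 loci (14.8%) were higher in dbr1-2 and 472 (3.47%) lower, 18.3% in either direction, against 17.5% of all 14351 loci fitted. The whole distribution was shifted, with a median log2 fold change of 0.14 that median ratio scaling of the libraries took to 0.01. Under that scaling 755 were higher and 436 lower. The calls that hold as deposited and with median ratios number 755 higher (5.56%) and 377 lower (2.78%). Of all calls, 335 rises (2.47%) and 80 falls (0.589%) held in every one of up to 17 other ways of processing the table, and the genes described below come from these unless a lost call is given.

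Large changes were few. Among called loci, 292 (2.15%) rose and 63 (0.464%) fell by at least 1 as a difference of log2(FPKM + 1), a measure that shrinks the change of low loci. Both mutant libraries exceeded both wild-type libraries at 7729 loci (56.9%) and lay below both at 2348 (17.3%), so that such separation is common and is no sign of a change on its own. A part of the rises came from loci that crossed the minimum: 335 of the loci called higher were at 1 FPKM or more in both mutant libraries and under it in both wild-type libraries, and 115 of those called lower had the reverse pattern. Loci of this kind had to differ to be included at all.

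**Figure D1:**
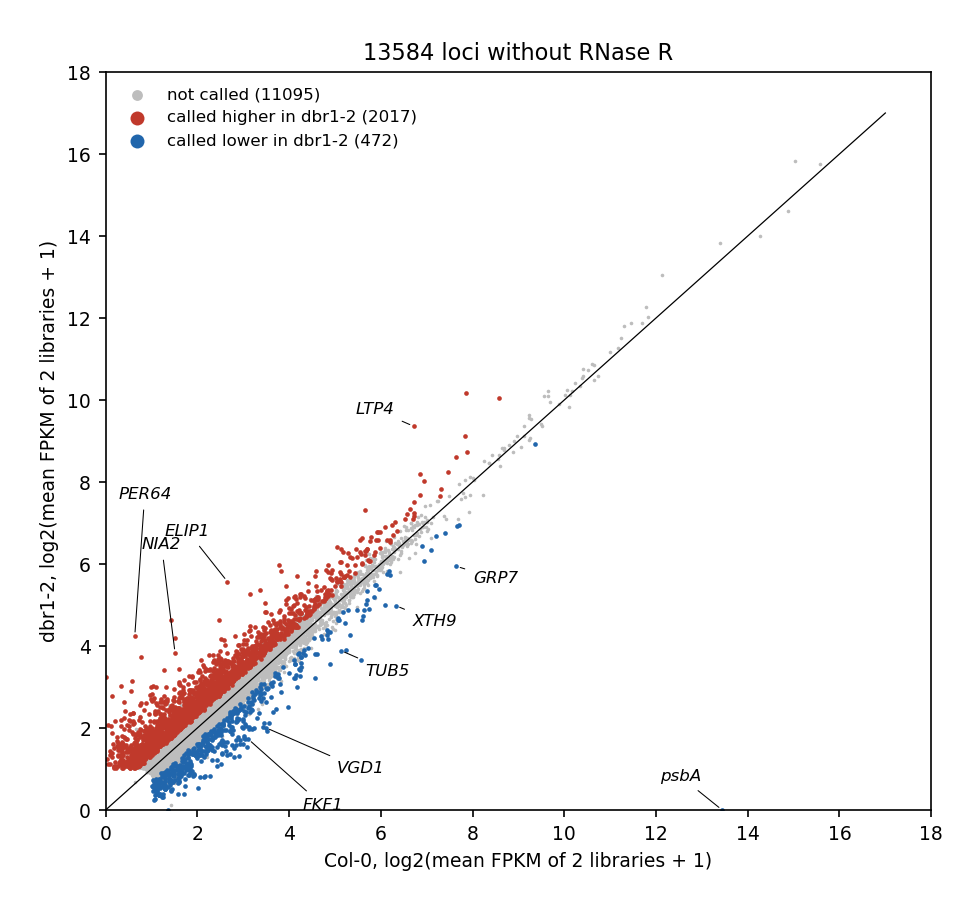
Mean FPKM of the 2 Col-0 libraries (horizontal) and the 2 dbr1-2 libraries (vertical) for each of the 13584 loci, as log2(mean + 1), with loci called higher in red (2017), lower in blue (472) and the rest in grey. The red points lie above the diagonal and the blue points below it, and psbA, listed at 0 in dbr1-2, lies on the lower axis towards the right.

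The replicates allow the comparison to be made within each sequencing tag. All 2017 rises and all 472 falls had the same direction within both tags, although the calls rest on these same libraries. A change of at least 1 on the log2 scale was seen within both tags for 241 of the loci called higher and 56 of those called lower. The median SD between replicates was 0.058 in Col-0 and 0.052 in dbr1-2 on the log2 scale.

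**Figure D2:**
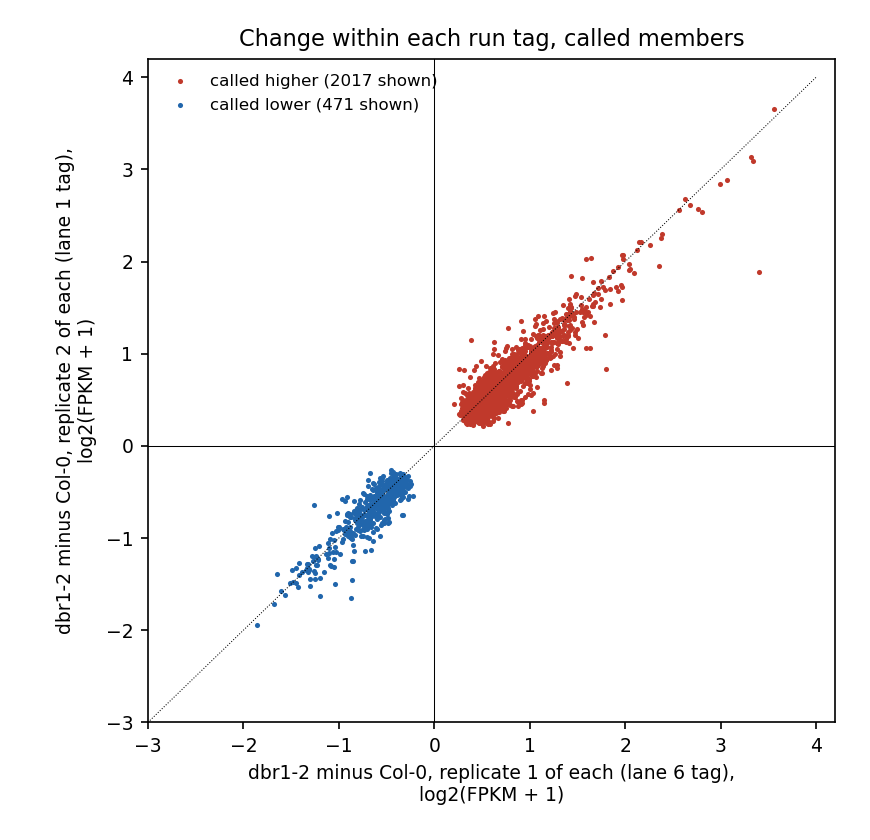
Difference of log2(FPKM + 1) between dbr1-2 and Col-0 in replicate 1, with the lane 6 tag (horizontal), and in replicate 2, with the lane 1 tag (vertical), for called loci other than psbA. The points lie along the dotted diagonal, in the upper right quadrant for the 2017 rises and in the lower left for the 471 falls shown.

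Genes of the circadian clock were called in both directions, mostly higher in a morning list and mostly lower in an evening list. The hour of collection is not given for either genotype, and its part in these calls was not tested. The plant clock is a loop of transcription factors, in which the morning MYB-like factors CCA1 and LHY repress evening genes through a short promoter sequence called the evening element, while RVE8 and its relatives activate through the same sequence, and PRR proteins and an evening complex repress the morning genes in turn. In dbr1-2, 7 of 10 genes of a morning list were higher and 1 lower, with a median log2 fold change of 1.18, against 0.14 over all loci. Over all loci 14.8% were higher and 3.47% lower. Of 14 genes of an evening and output list, 7 were lower and 1 higher, with a median of −0.45. Of these calls, 6 of the rises and 5 of the falls held in all alternatives. Of the morning rises, 4 (LHY, CCA1, RVE8 and RVE1) reached the minimum in dbr1-2 alone and so had to differ to be counted, and of the other 6 morning genes 3 were higher and 1 lower, with a median of 0.49. The single rise of the evening list was not called after median ratio scaling.

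The promoters of 4 genes are shown here because the genes lie on both sides of this change and carry the element or another clock-related motif. Each is the reference sequence of the 250 bases before the annotated start, from RefSeq TAIR10.1, read 5′ to 3′ on the strand of the gene. In the PRR5, FKF1 and GRP7 windows the capitals mark the evening element, AAAATATCT or, on the other strand, AGATATTTT, and in the LHY window the G-box CACGTG.
PRR5 (chr5:8358547-8358796, minus strand): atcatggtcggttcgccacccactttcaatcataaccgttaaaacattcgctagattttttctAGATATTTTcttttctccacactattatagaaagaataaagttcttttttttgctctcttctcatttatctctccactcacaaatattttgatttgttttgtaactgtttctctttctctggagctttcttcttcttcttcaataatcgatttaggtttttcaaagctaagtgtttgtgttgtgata
FKF1 (chr1:25508389-25508638, plus strand): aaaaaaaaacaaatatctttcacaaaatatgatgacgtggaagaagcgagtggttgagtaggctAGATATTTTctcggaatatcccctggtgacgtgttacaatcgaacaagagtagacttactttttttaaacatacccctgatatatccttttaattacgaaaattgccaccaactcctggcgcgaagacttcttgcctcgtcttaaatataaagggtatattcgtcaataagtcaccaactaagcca
GRP7 (chr2:9266558-9266807, minus strand): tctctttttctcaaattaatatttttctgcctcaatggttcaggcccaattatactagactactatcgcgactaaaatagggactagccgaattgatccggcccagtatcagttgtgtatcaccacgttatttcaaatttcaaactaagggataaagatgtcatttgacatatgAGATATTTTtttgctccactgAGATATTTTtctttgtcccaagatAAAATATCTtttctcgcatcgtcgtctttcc
LHY (chr1:37872-38121, minus strand): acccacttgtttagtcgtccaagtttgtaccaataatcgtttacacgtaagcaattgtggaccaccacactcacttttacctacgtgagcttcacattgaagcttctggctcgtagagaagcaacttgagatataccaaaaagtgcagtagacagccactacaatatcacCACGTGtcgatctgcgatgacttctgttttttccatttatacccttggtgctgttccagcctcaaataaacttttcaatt
The element lies 179 to 187 bases before the start of PRR5 and 178 to 186 bases before that of FKF1. GRP7 holds 3 copies, the nearest 23 to 31 bases before its start. The LHY window holds no evening element, and its G-box lies 75 to 80 bases before the start.

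LHY stood at 0.457 and 0.492 FPKM in Col-0 and at 6.596 and 6.34 FPKM in dbr1-2. Its RNA was barely present in both wild-type libraries and moderately abundant in both mutant libraries (log2 fold change 2.34, SE 0.09, limma adjusted p = 3.6e-05). CCA1, its partner, rose from 0.380 and 0.513 FPKM to 4.17 and 4.01 (log2 fold change 1.82, SE 0.15, adjusted p = 0.000504). RVE8, an activator of evening genes, was at 0.364 and 0.284 FPKM in Col-0 and 5.54 and 4.83 in dbr1-2, a rise of 2.22 on the log2 scale (SE 0.13, adjusted p = 0.000136). All 3 genes were below 1 FPKM in the wild type and above 4 FPKM in the mutant.

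RVE1, a relative that links the clock to auxin, rose from 0.495 and 0.552 FPKM to 4.01 and 4.38 (log2 fold change 1.77, SE 0.16, adjusted p = 0.000734). LNK2 (AT3G54500), a coactivator that works with RVE8, was at 1.59 and 1.35 FPKM in Col-0 and at 5.29 and 5.01 in dbr1-2. RVE4 (LCL1 in the annotation), the close homolog of RVE8, was at 2.69 and 2.45 FPKM in Col-0 and 6.405 and 6.29 in dbr1-2. The mutant libraries lay above those of the wild type in each case, as they did at 56.9% of all loci. RVE8, RVE1 and LNK2 overlap another annotated gene, and as no source states whether reads were counted by strand, their values are less certain than those of LHY, CCA1 and RVE4.

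On the evening side, PRR5, a repressor of CCA1 and LHY, stood at 8.52 and 8.40 FPKM in Col-0 and at 2.97 and 3.06 in dbr1-2. Both mutant libraries were far below both wild-type libraries (log2 fold change −1.24, SE 0.09, adjusted p = 0.000293). FKF1, a blue-light photoreceptor that targets repressors of flowering for degradation, fell from 7.79 and 7.45 FPKM to 2.36 and 2.28 (log2 fold change −1.38, SE 0.09, adjusted p = 0.000258). GI, the partner of FKF1, was at 9.95 and 10.6 FPKM in Col-0 and 5.28 and 5.15 in dbr1-2 (log2 fold change −0.86, SE 0.10, adjusted p = 0.00151). LUX (PCL1 in the annotation), the DNA-binding subunit of the evening complex, was at 6.26 and 6.30 FPKM in Col-0 and 3.51 and 3.44 in dbr1-2. FKF1 and LUX overlap an annotated gene and carry the same uncertainty about strand.

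The clock output gene GRP7, an RNA-binding protein that also regulates its own splicing, was the most abundant of the list. Its level was 218 and 181 FPKM in Col-0 and 67.1 and 54.1 in dbr1-2 (log2 fold change −1.70, SE 0.14, adjusted p = 0.000512). TOC1, the evening repressor at the centre of the loop, was at 8.09 and 8.58 FPKM in Col-0 and 6.27 and 6.18 in dbr1-2, and did not pass (adjusted p = 0.0572). It passed under 7 alternatives, among them median ratio scaling (adjusted p = 0.0436). ELF3, a further subunit of the evening complex, was at 5.21 and 5.08 FPKM in Col-0 and 5.10 and 4.91 in dbr1-2 and did not pass (adjusted p = 0.864).

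**Figure D3:**
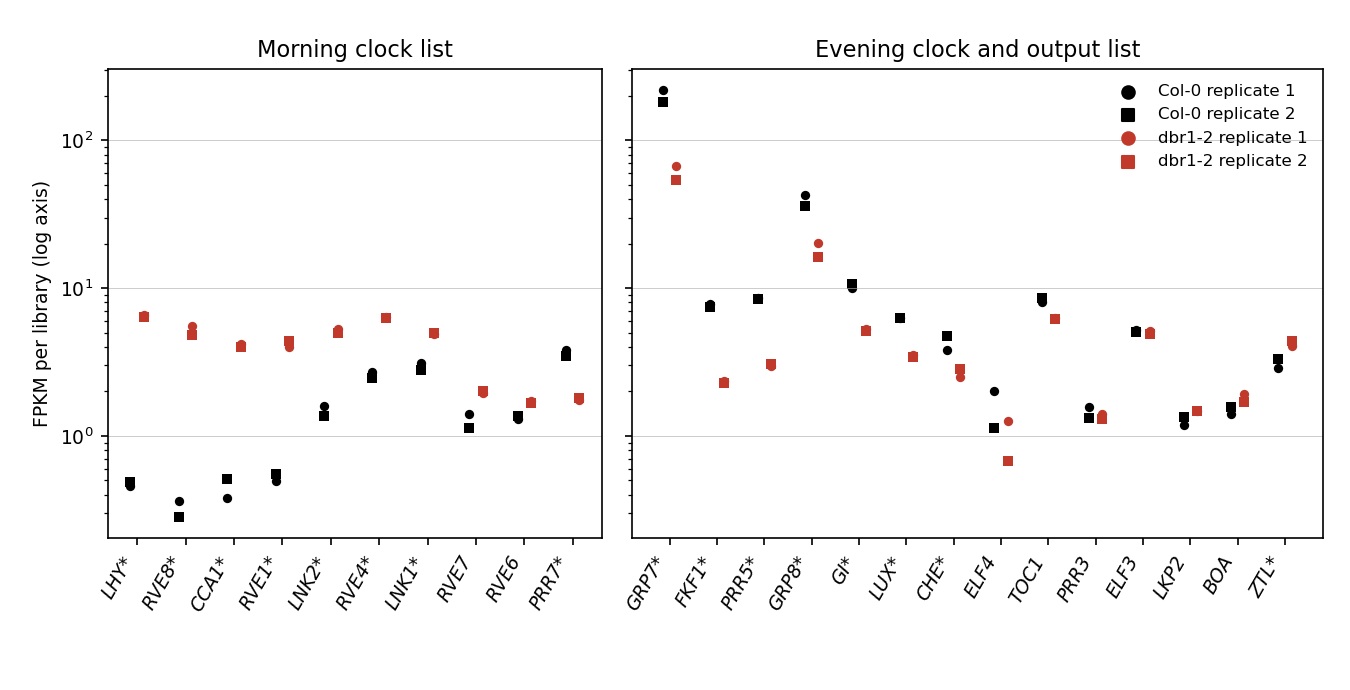
FPKM per library on a log axis for the 10 morning (left) and 14 evening or output genes (right), with Col-0 in black, dbr1-2 in red, replicate 1 as circles, replicate 2 as squares, and an asterisk for a limma adjusted p under 0.05. LHY, RVE8, CCA1 and RVE1 are under 1 FPKM in Col-0 and above it in dbr1-2, whereas GRP7, FKF1, PRR5, GI and LUX are lower in dbr1-2.

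The evening element was found more often in promoters of genes that were lower, as a count to which no test was applied. The 9 letters AAAATATCT, searched on both strands of the 250 bases before the start, were present in 328 of 12589 windows of protein-coding genes with a name used once (2.61%). Among genes called lower under both scalings the share was 9.56% (35 of 366), and among those that fell by at least 1 on the log2 scale it was 19.6% (11 of 56). Among genes called higher under both scalings it was 1.98% (14 of 707). Of the evening list, 7 of 14 genes held it, but the pattern did not rest on that list: outside it, 30 of 359 genes called lower under both scalings (8.36%) had the element. Of the 15 largest falls among protein-coding genes, GRP7, AT4G30650 and AT5G62360 carried it. A match describes these letters in this window and is not a binding site.

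Ordered by the log2 fold change after median ratio scaling, the share was 18.6% (13 of 70) below −1, 7% (29 of 414) from −1 to −0.5 and 4.06% (47 of 1159) from −0.5 to −0.25. It was 2.23% (197 of 8848) around 0 and 2.04%, 1.86% and 2.31% in the successive classes of rising genes. The share thus increased towards the strongest falls and was flat over the rises. The related CCA1-binding sequence AAAAATCT showed no such gradient, with 7.16% of all windows, 7.65% of those of lower genes and 7.5% of those of higher genes.

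**Figure D4:**
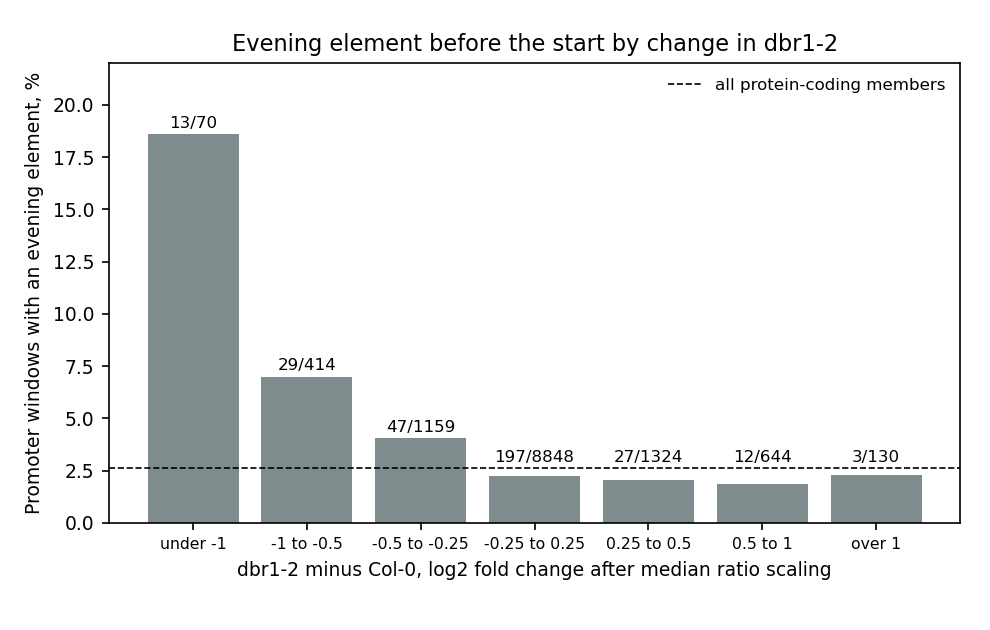
Percentage of promoter windows of 250 bases with an evening element on either strand, for protein-coding genes in classes of log2 fold change between dbr1-2 and Col-0 after median ratio scaling, with the number of windows over each bar and the share of all windows (2.61%) as a dashed line. The share is 18.6% in the class of the strongest falls and close to the dashed line in all classes of rising genes.

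The response to abscisic acid, the hormone of drought and dormancy, was a further group with many rises. Of 24 genes of its signalling and of the dehydration response, 14 were higher, 3 lower and 7 not called, beside 14.8% higher and 3.47% lower over all loci. The median log2 fold change was 0.72, and 10 rises held in all alternatives. Of the rises 3, those of RAB18 and NCED3 among them, reached the minimum in dbr1-2 alone and so had to differ to be counted. The other 21 genes had 11 higher and 3 lower, with a median of 0.53. RAB18 (AT5G66400), a dehydrin induced by the hormone, had a level of 0.488 and 0.507 FPKM in Col-0 and of 7.81 and 7.87 in dbr1-2. The wild-type and mutant pairs were each nearly identical and far apart from one another (log2 fold change 2.56, SE 0.09, limma adjusted p = 2.78e-05), though RAB18 overlaps an annotated gene on the other strand. RD20, a caleosin of lipid droplets, rose from 14.01 and 12.5 FPKM to 58.0 and 54.0 (log2 fold change 2.00, SE 0.09, adjusted p = 6.14e-05). HB-12, a homeodomain-leucine zipper factor induced by water deficit, was at 1.19 and 0.766 FPKM in Col-0 and 7.56 and 6.45 in dbr1-2.

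HAI1, a protein phosphatase that blocks the hormone's signal, was at 2.31 and 2.08 FPKM in Col-0 and 7.08 and 6.81 in dbr1-2 (log2 fold change 1.31, SE 0.11, adjusted p = 0.000476). The phosphatase genes HAI2, HAB1 and ABI2 of the same clade rose by log2 fold changes of 1.04, 1.08 and 0.69. On the side of synthesis, NCED3, the rate-limiting enzyme under drought, was at 0.246 and 0.395 FPKM in Col-0 and 1.21 and 1.24 in dbr1-2. ABA1, which makes an earlier precursor, was at 4.98 and 4.37 FPKM and at 9.42 and 8.37. NCED3 reached the minimum in dbr1-2 alone and so had to differ. For ABA1 both mutant libraries lay above both wild-type libraries, as at 56.9% of all loci.

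Proline accumulates in water deficit, and the genes at its entry and exit were called in opposite directions. P5CS1, the rate-limiting enzyme of proline synthesis, stood at 13.3 and 12.3 FPKM in Col-0 and at 63.1 and 61.0 in dbr1-2 (log2 fold change 2.19, SE 0.11, adjusted p = 9.83e-05). ERD5, the proline dehydrogenase of the first step of breakdown, fell from 15.7 and 17.1 FPKM to 8.16 and 8.42 (log2 fold change −0.91, SE 0.09, adjusted p = 0.000816). In all, 3 of 7 genes of proline metabolism were higher and 1 lower, and under both scalings 1 and 1. Over all loci 14.8% were higher and 3.47% lower, and under both scalings 5.56% and 2.78%. P5CS1 shares its interval with another locus and overlaps a gene on the other strand.

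Cold-regulated genes moved the other way where they moved at all. Of 13, 4 were lower, 0 higher and 9 not called by limma (at an unadjusted p under 0.05, 6 were lower and 1 higher), and none of the falls held in every alternative. Over all loci 3.47% were lower and 14.8% higher. KIN2, a small hydrophilic protein of the cold response, was at 213 and 200 FPKM in Col-0 and 127 and 118 in dbr1-2 (log2 fold change −0.75, SE 0.12, adjusted p = 0.00473), and lost its call when organelle and ribosomal RNA loci were removed (adjusted p = 0.193). COR15B, a chloroplast protein that stabilises membranes, was at 41.6 and 32.2 FPKM and at 14.97 and 12.7, and its call was lost without Col-0 replicate 1 (adjusted p = 0.068) or dbr1-2 replicate 2 (adjusted p = 0.0575). Its close homolog COR15A was at 56.9 and 55.4 FPKM in Col-0 and 51.2 and 49.0 in dbr1-2 and did not pass (adjusted p = 0.429). The largest fall among protein-coding genes with a name used once and a mean of at least 5 FPKM was that of AT4G30650, annotated as responsive to low temperature and salt, from 51.3 and 41.3 FPKM to 13.4 and 10.001 (log2 fold change −1.90, SE 0.20, adjusted p = 0.00112).

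Of 16 heat shock genes only 5 reached the minimum, and 4 of these were higher, 2 of them under both scalings. The count says little, since 3 of the 4, HSP70 and HSP90.1 included, reached the minimum in dbr1-2 alone and so had to differ. HSP70 (AT3G12580), a heat-inducible cytosolic chaperone, rose from 0.463 and 0.374 FPKM to 3.08 and 3.23 (log2 fold change 1.55, SE 0.13, adjusted p = 0.000538), and HSP90.1, another such chaperone, from 0.341 and 0.236 to 1.80 and 1.54. All of these are low levels. Chaperones of the endoplasmic reticulum were nearly all uncalled: 1 of 15 was higher, and 0 under both scalings, and the median log2 fold change of 0.13 was close to that of all loci.

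Nitrate assimilation, in which nitrate is reduced to ammonium and bound into amino acids, had calls in one direction. Of 11 genes, 7 were higher and 0 lower by limma (9 and 0 at an unadjusted p under 0.05), beside 14.8% and 3.47% over all loci. In all alternatives 2 of the rises held, beside 2.47% of all loci. One rise came from a gene at the minimum in dbr1-2 alone, and of the 9 genes not of that kind 6 were higher. NIA2, the main nitrate reductase, was at 1.79 and 1.92 FPKM in Col-0 and at 13.4 and 12.97 in dbr1-2 (log2 fold change 2.31, SE 0.09, adjusted p = 3.6e-05). NIR1, the nitrite reductase of the chloroplast that follows it, was at 2.47 and 2.58 FPKM in Col-0 and 8.48 and 8.66 in dbr1-2 (log2 fold change 1.44, SE 0.14, adjusted p = 0.000784). The levels in the mutant were several times those in the wild type for both genes, with close replicates. The minor isoform NIA1 was at 3.15 and 3.57 FPKM in Col-0 and 4.31 and 4.67 in dbr1-2 and did not pass (adjusted p = 0.0667).

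Aliphatic glucosinolates, the sulfur-rich defence compounds of the family, are made from methionine by chain elongation and the action of P450 enzymes. Of 10 genes of glucosinolate synthesis and breakdown, 7 were higher and 0 lower by limma (8 and 0 at an unadjusted p under 0.05), beside 14.8% and 3.47% over all loci. Their median log2 fold change was 0.87. Of the rises 3 (CYP79F1, MAM1 and BCAT4) reached the minimum in dbr1-2 alone and so had to differ to be counted, and of the other 7 genes 4 were higher, with a median of 0.50. CYP79F1, the cytochrome P450 that commits elongated methionine to the pathway, was at 0.0790 and 0.0772 FPKM in Col-0, a few reads, and at 3.09 and 3.14 in dbr1-2 (log2 fold change 1.93, SE 0.11, adjusted p = 0.000136). MAM1, which elongates the chain, rose from 0.181 and 0.210 FPKM to 2.14 and 2.23, and CYP83A1, the next P450, from 2.68 and 3.32 to 6.46 and 7.15. BCAT4, the aminotransferase at the start of chain elongation, was at 0.0667 and 0.0592 FPKM and at 1.65 and 1.74, but was no longer called once the pseudocount was 0.01 (adjusted p = 0.0716). TGG2, a myrosinase that breaks glucosinolates down on wounding, was at 216 and 241 FPKM in Col-0 and 545 and 576 in dbr1-2 (log2 fold change 1.29, SE 0.11, adjusted p = 0.000536), and lost its call when organelle and ribosomal RNA loci were removed (adjusted p = 0.134). BCAT4 and TGG2 overlap other annotated genes.

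Every xylem marker above the minimum was higher. Of 8 markers, 7 reached it, and all 7 were called in every alternative, beside 2.47% of all loci called higher in every alternative. Their median log2 fold change was 1.09. Their summed level with the remaining marker was 12.4 and 12.5 FPKM in Col-0 and 33.1 and 32.9 in dbr1-2. CESA4, a cellulose synthase of the secondary wall, was at 1.74 and 1.91 FPKM in Col-0 and 5.64 and 5.82 in dbr1-2 (log2 fold change 1.25, SE 0.13, adjusted p = 0.000896). XCP2, a protease of xylem cell death, rose from 2.51 and 2.61 FPKM to 7.12 and 6.05, and LAC4 (IRX12 in the annotation), a laccase of lignin formation, from 2.96 and 2.92 to 6.29 and 6.45. CESA4, and the further secondary wall genes CESA7, CESA8, XCP1 and LAC17, overlap other annotated genes, whereas XCP2 and LAC4 do not.

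The cellulose synthases of the growing primary wall gave no call by limma (0 of 5, and 0 at an unadjusted p under 0.05), and their median log2 fold change was 0.13. CESA1 was at 17.58 and 19.0 FPKM in Col-0 and 20.4 and 21.3 in dbr1-2 (adjusted p = 0.245), and CESA6 at 15.6 and 16.4 against 15.5 and 15.4 (adjusted p = 0.788). The CESA6 values of the genotypes are nearly the same. Whether the change of the xylem genes differed from that of these genes was not tested.

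The largest rise of protein-coding genes with a name used once and a mean of at least 5 FPKM was that of PER64, a peroxidase known from lignin deposition in the Casparian strip of roots. It stood at 0.659 and 0.448 FPKM in Col-0 and at 18.6 and 17.3 in dbr1-2 (chromosome 5 from 16852628 to 16854224, log2 fold change 3.61, SE 0.20, adjusted p = 0.000118). It was near absent in both wild-type libraries and at a middle level in both mutant libraries, but it shares its interval with another locus and overlaps a gene on the other strand. PIP2B, an aquaporin of the plasma membrane, rose from 2.04 and 2.01 FPKM to 9.80 and 9.75 (log2 fold change 1.83, SE 0.20, adjusted p = 0.00126). PRP2, a proline-rich protein of the wall, was at 4.87 and 4.56 FPKM and at 17.62 and 16.4.

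Wall-loosening genes were divided. Of 23 expansins and xyloglucan endotransglucosylases (XTH), 10 were higher and 4 lower, but under both scalings 4 and 3, and 3 and 1 held in all alternatives. Over all loci 14.8% were higher and 3.47% lower. EXPA8 rose from 7.33 and 8.26 FPKM to 20.01 and 19.4, EXPA1 from 13.2 and 12.7 to 29.1 and 28.2, and EXPA15 from 4.64 and 4.88 to 9.63 and 9.78. These expansins loosen the contact of cellulose and other polysaccharides. XTH9, an enzyme that cuts and rejoins xyloglucan chains, fell from 82.4 and 76.2 FPKM to 31.9 and 29.4 (log2 fold change −1.34, SE 0.13, adjusted p = 0.000782). TUB5, a beta-tubulin, was at 33.6 and 34.3 FPKM in Col-0 and 13.2 and 14.4 in dbr1-2 and so was also lower (log2 fold change −1.24, SE 0.11, adjusted p = 0.000626).

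LTP4, a secreted lipid transfer protein, was at 96.9 and 111 FPKM in Col-0 and at 625 and 687 in dbr1-2 (log2 fold change 2.65, SE 0.11, adjusted p = 3.6e-05). Of 7 such genes 3 were higher, and the calls of LTP2 and LTP3 were lost when organelle and ribosomal RNA loci were removed (adjusted p = 0.135 and 0.349). AT3G53980, annotated as a member of the same superfamily, was at 1.44 and 1.96 FPKM in Col-0 and 23.7 and 24.2 in dbr1-2 and was not called with 0.01 as pseudocount (adjusted p = 0.145). In contrast, 5 of 18 genes of cuticular wax and cutin were lower and 0 higher by limma (7 and 2 at an unadjusted p under 0.05), beside 3.47% and 14.8% over all loci. CYP86A4, which hydroxylates fatty acids for floral cutin, was at 9.36 and 10.2 FPKM in Col-0 and 5.596 and 5.71 in dbr1-2 (log2 fold change −0.70, SE 0.09, adjusted p = 0.00282).

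Genes of light perception and photoprotection were higher in 11 of 18 cases and lower in 1, and under both scalings in 7 and 0. Over all loci the shares were 14.8% and 3.47%, and under both scalings 5.56% and 2.78%. The fall and 1 of the rises were of genes at the minimum in 1 genotype alone. ELIP1, an early light-induced protein of the thylakoid, was at 4.96 and 5.65 FPKM in Col-0 and 46.4 and 46.6 in dbr1-2. Its homolog ELIP2 rose from 0.849 and 0.557 FPKM to 4.76 and 5.40 (log2 fold change 1.84, SE 0.18, adjusted p = 0.000816). SPA1, which with COP1 degrades light-signalling factors in the dark, was at 3.01 and 3.12 FPKM and at 6.46 and 6.19, and BBX25 (STH in the annotation), a B-box factor of light signalling, at 1.095 and 0.899 and at 5.89 and 5.21. PHOT2, a blue-light receptor of chloroplast movement, rose from 3.66 and 4.19 FPKM to 8.66 and 9.07. No overlap between the genotypes was a condition of the rankings that named ELIP1 and PHOT2, and ELIP2 reached the minimum in dbr1-2 alone. Both mutant libraries exceeded both wild-type libraries at 56.9% of all loci. BBX25 and PHOT2 overlap other annotated genes. The PHOT2 locus also shares its interval with another locus, and it was ranked outside the protein-coding genes with a name used once on their own strand.

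Markers of green tissue were mixed, with 12 of 27 higher, 3 lower and 12 not called, beside 14.8% higher and 3.47% lower over all loci. Among the rises, 2 (CA1 and CAT2) held in all alternatives. The summed level of the markers was 3022 and 3361 FPKM in Col-0 and 4047 and 4155 in dbr1-2, and none was at 0. CA1, the chloroplast carbonic anhydrase, was at 46.2 and 52.7 FPKM in Col-0 and 158 and 161 in dbr1-2 (log2 fold change 1.67, SE 0.11, adjusted p = 0.000225), although it overlaps a gene on the same strand. CAT2, the peroxisomal catalase, rose from 7.96 and 7.83 FPKM to 37.9 and 37.6. CA2, a related carbonic anhydrase that is not in the marker list, rose from 9.08 and 9.45 FPKM to 40.5 and 40.1. RCA, the activase of Rubisco, was at 110 and 118 FPKM and at 283 and 297, and lost its call when organelle and ribosomal RNA loci were removed (adjusted p = 0.0798).

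The 3 falls of that list were the light-harvesting genes LHCB1.1, LHCB1.2 and LHCB1.3, whose log2 fold changes were −0.51, −0.46 and −0.43 and whose calls were lost as TPM and after that removal. LHCB3 was at 67.0 and 66.5 FPKM in Col-0 and 80.6 and 74.4 in dbr1-2 and did not pass (adjusted p = 0.518), nor did LHCB6 (adjusted p = 0.487). The LHCB1 genes are near-identical copies, among which reads may have been divided. The part of the marker levels in the results on light, nitrate and carbon fixation was not tested.

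Markers of mature pollen were lower throughout. Of 13 such genes 12 are in the table and 6 reached the minimum, and all 6 were called lower, beside 3.47% of all loci. Their median log2 fold change was −1.27, though only 2 calls held in all alternatives, beside 0.589% of all loci. Of the 6, 2 reached the minimum in Col-0 alone and so had to differ, and the other 4 had a median of −1.37. The summed level of the 12 was 41.1 and 41.1 FPKM in Col-0 and 14.6 and 12.5 in dbr1-2, and none was at 0 in all libraries. VGD1, a pectin methylesterase of the pollen tube, was at 11.3 and 9.18 FPKM in Col-0 and 3.39 and 2.66 in dbr1-2 (log2 fold change −1.48, SE 0.17, adjusted p = 0.00158). PGA4, a polygalacturonase of pollen, fell from 15.7 and 13.8 FPKM to 5.09 and 4.31 (log2 fold change −1.47, SE 0.15, adjusted p = 0.00107).

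Other genes among the 15 largest falls belong to no list and are given singly. AT3G07820, a pectin lyase-like protein, was at 11.1 and 9.74 FPKM in Col-0 and 3.12 and 2.49 in dbr1-2, and AT5G07410, of the same superfamily, at 12.4 and 10.6 against 4.59 and 3.87. AT5G62360, annotated as an invertase or pectin methylesterase inhibitor, was at 30.8 and 26.8 FPKM and at 11.8 and 10.02, and AT5G19580, a glyoxal oxidase-related protein, at 8.64 and 10.99 and at 2.92 and 3.18. The absence of overlap between the genotypes was a condition for being ranked among these falls. Both mutant libraries lay below both wild-type libraries at 17.3% of all loci. The summed level of the pollen markers fell alongside, and its part in these results was not tested.

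Earlier stages of the anther gave a different picture. Of 10 tapetum markers, 0 were called by limma (1 at an unadjusted p under 0.05), with a median log2 fold change of −0.12 and a summed level of 79.0 and 82.6 FPKM in Col-0 and 71.6 and 72.5 in dbr1-2. Of 9 pollen coat genes, 1 was higher (0 under both scalings), and the sum was 169 and 177 against 183 and 188 FPKM. MS2, a fatty acyl reductase of the pollen wall, was at 7.70 and 7.09 FPKM in Col-0 and 7.46 and 7.27 in dbr1-2 (adjusted p = 0.989). Whether the tapetum and pollen markers differ in their change was not tested.

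Markers of the meristem and young flower were called in both directions, with 3 higher, 3 lower and 7 not called of 13. None of these calls held in every alternative. Over all loci 14.8% were higher and 3.47% lower, and under both scalings 5.56% and 2.78%. Their summed level was 97.3 and 95.5 FPKM in Col-0 and 108.5 and 101.9 in dbr1-2, and CLV3 was at 0 in all 4 libraries. Of 6 nectary and open-flower markers, 2 were higher and 1 lower (2 and 0 under both scalings), with a sum of 23.6 and 22.9 against 30.2 and 26.9 FPKM. TPS21, which makes sesquiterpenes of floral scent, rose from 3.03 and 3.20 FPKM to 6.91 and 6.32 (log2 fold change 0.89, SE 0.10, adjusted p = 0.00123).

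Among hormone pathways other than abscisic acid, auxin had the most calls, with 6 of 19 genes higher and 2 lower. A gene at the minimum in dbr1-2 alone made up 1 of these rises. PIN3, an auxin efflux carrier, was at 3.55 and 4.19 FPKM in Col-0 and 9.24 and 10.2 in dbr1-2 (log2 fold change 1.14, SE 0.11, adjusted p = 0.000735). IAA2, an auxin-induced repressor of the response, rose from 4.65 and 4.77 FPKM to 10.8 and 10.4 (log2 fold change 1.02, SE 0.12, adjusted p = 0.00173). Of 23 jasmonate genes 2 were higher and 21 not called, among them LOX2, an enzyme of its synthesis, at 100.2 and 110 FPKM in Col-0 and 102 and 104 in dbr1-2 (adjusted p = 0.88). The ethylene list had 3 of 11 higher, the brassinosteroid list 1 of 9, and the cytokinin list 2 of 7 higher and 1 lower. The cytokinin fall was of a gene at the minimum in Col-0 alone, and 2 of 13 gibberellin genes, both of that kind, were lower. Under both scalings the rises were 4 for auxin, 1 for ethylene, 0 for brassinosteroid and 1 for cytokinin, and the falls 0 for cytokinin and 1 for gibberellin. These shares stand beside 14.8% higher and 3.47% lower over all loci.

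**Figure D5:**
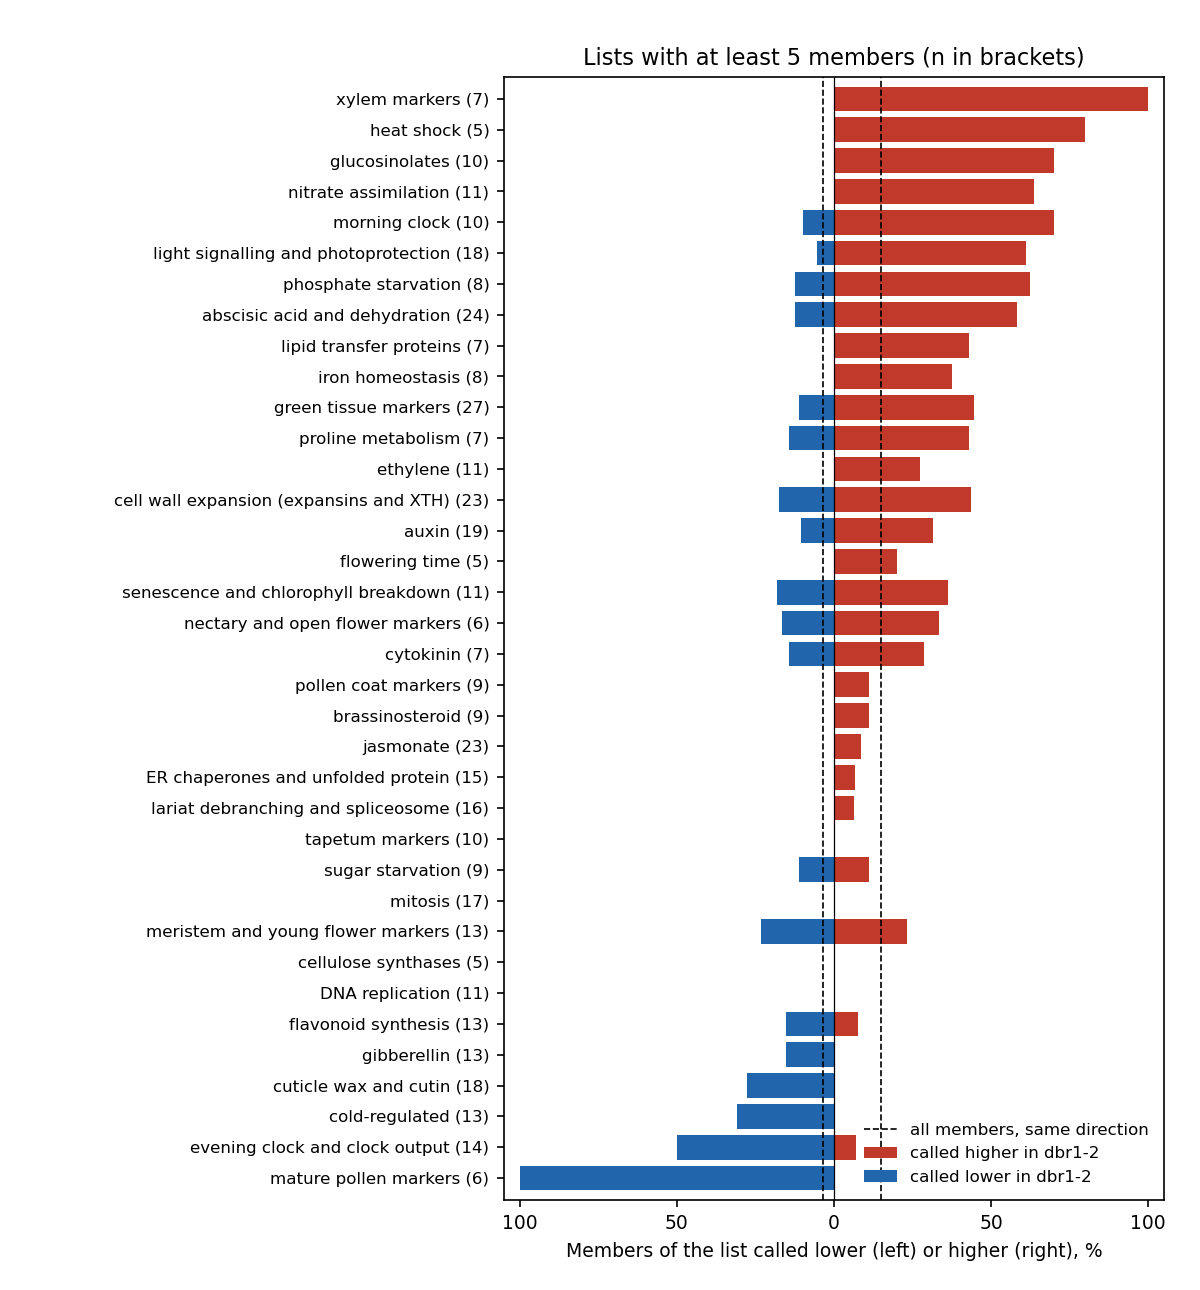
Percentage of the genes of each list called higher (red, right) or lower (blue, left) in dbr1-2 at a limma adjusted p under 0.05, with the number of genes at the minimum level in brackets and the shares over all 13584 loci as dashed lines. Xylem markers (7 of 7 higher) stand at the top and mature pollen markers (6 of 6 lower) at the bottom, next to the evening clock list (7 of 14 lower).

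Cell division genes gave no call. Of 11 genes of DNA replication, 0 were called by limma (6 at an unadjusted p under 0.05, all lower), with a median log2 fold change of −0.22, or −0.34 after median ratio scaling. The helicase subunit MCM2 was at 4.85 and 4.86 FPKM in Col-0 and 3.60 and 3.75 in dbr1-2 (adjusted p = 0.0746), and MCM6 at 3.16 and 3.40 against 2.27 and 2.37 (adjusted p = 0.0577). For both subunits the genotypes did not overlap, but 17.3% of all loci have both mutant libraries below both of the wild type. Of 17 genes of mitosis 0 were called by limma (0 also at an unadjusted p under 0.05), with a median of −0.08.

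The machinery that makes lariats was also nearly uncalled. Of 16 genes of the spliceosome and of factors that accompany it, 1 was higher (PRP8A, listed as SUS2), and its call was lost with median ratio scaling. CDC5, a core factor of the complex that activates the spliceosome, was at 7.43 and 7.32 FPKM in Col-0 and 7.75 and 7.43 in dbr1-2 (adjusted p = 0.895). PRL1, of the same complex, was at 6.23 and 6.24 FPKM and at 6.35 and 6.49 (adjusted p = 0.865). The genotypes differed by less than 1 FPKM in both genes.

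Shorter lists are given by count alone, to be read beside 14.8% higher and 3.47% lower over all loci. Under both scalings these shares were 5.56% and 2.78%. Of 8 phosphate starvation genes 5 were higher and 1, at the minimum in Col-0 alone, was lower, but under both scalings 1 and 0. Of 8 iron genes 3 were higher, and 0 under both scalings. No call of these 2 lists held in every alternative. Of 13 flavonoid genes 1 was higher and 2 lower (0 and 2 under both scalings), with 1 of the falls at the minimum in Col-0 alone. Of 11 senescence genes 4 were higher and 2 lower (1 and 1 under both scalings). Genes at the minimum in 1 genotype alone, which had to differ, made up 2 of these rises and 1 of these falls. Among the other 8 genes 2 were higher and 1 lower. The call that held in all alternatives was that of SAG29, a sugar transporter at the minimum in dbr1-2 alone (0.514 and 0.668 FPKM in Col-0, 2.70 and 2.45 in dbr1-2). The sugar starvation list had 1 of 9 higher and 1 lower (0 and 1 under both scalings), the flowering time list 1 of 5 higher and the meiosis list 1 of 2 higher. Of 4 salicylic acid genes 0 were called by limma (1 at an unadjusted p under 0.05).

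Some small RNA loci differed more between the sequencing tags than between the genotypes. The snRNA locus U4.2, of the spliceosomal U4 RNA, had a level of 111 and 38.2 FPKM in Col-0 and 104 and 39.7 in dbr1-2, and U1.5, a U1 locus, one of 67000 and 31052 against 73178 and 38171. In each genotype the library with the lane 6 tag was higher than that with the lane 1 tag. Of 5 snRNA and 11 snoRNA loci 0 were called by limma (0 and 1 at an unadjusted p under 0.05). The locus of the microRNA MIR779 had a level of 1.37 and 1.73 FPKM in Col-0 and of 0 in both mutant libraries, and was not called with 0.01 as pseudocount (adjusted p = 0.12). It reached the minimum in Col-0 alone and so had to differ, and an exact 0 can be a failed estimate. Only 2 loci, MIR779 and the psbA locus described below, were at 0 in both dbr1-2 libraries and at 1 FPKM or more in both Col-0 libraries. Of the 4 other microRNA loci, MIR414 was at 1.02 and 0.715 FPKM in Col-0 and 2.06 and 1.75 in dbr1-2 (adjusted p = 0.0425) and was not called after median ratio scaling (adjusted p = 0.194), and MIR839, MIR159a and MIR168a did not pass (adjusted p = 0.566, 0.695 and 0.339).

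Few organelle transcripts were called. Of 66 chloroplast loci 2 were higher and 1 lower, and of 67 mitochondrial loci 2 were higher, beside 14.8% higher and 3.47% lower over all loci. Under both scalings 0% of the chloroplast and 1.49% of the mitochondrial loci were higher, beside 5.56% of all loci. The fall is psbA, which encodes the D1 protein of photosystem II and is listed at 10159 and 12106 FPKM in Col-0 and at 0 in both dbr1-2 libraries. An exact 0 for such a gene can be a failed estimate, and no fold change is given. The nuclear locus AT2G01010, annotated as 18S ribosomal RNA, was at 163 and 171 FPKM in Col-0 and 104 and 111 in dbr1-2, after a step that depletes ribosomal RNA.

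Since lariats come from introns, calls were counted by intron number over the 12589 protein-coding genes with a name used once, of which 15.01% were higher and 3.63% lower. Genes without an intron were higher in 18.7% and lower in 6.71% of cases, genes with 1 to 3 introns in 16.5% and 4.34%, those with 4 to 10 in 14.2% and 2.48%, and those with over 10 in 11.1% and 2.66%. Loci above 5 FPKM were called more often than lower ones: 12.3% were higher under 5 FPKM, 21.1% from 5 to 20 and 23.5% above 20. Calls fell with intron number under 5 FPKM, from 17.7% to 6.30% higher, and changed less from 5 to 20 FPKM, from 22.8% to 19.5%. Above 20 FPKM they did not fall, and 51.9% (28 of 54) of genes with over 10 introns were higher. Under both scalings that share was 27.8%, beside 12.6% of all genes above 20 FPKM. Several of the photorespiration genes described below are among these rises. These are counts without a test.

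Calls were spread over the genome. The share of genes called higher was 14.2% to 15.6% over the 5 chromosomes, and within 1 Mb of DBR1 it was 14.4% of 299 genes, with 3.68% lower. Some loci named after a gene lie on the opposite strand to it, an inference from how loci are numbered, and they were called higher in 38.7% of 75 cases, with a median log2 fold change of 0.56, against 14.7% of the other loci. These opposite-strand loci were mostly low, with a median of 1.27 FPKM, against 3.02 for the other loci.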

How the data were processed

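RNA of inflorescences was sequenced from stranded libraries after removal of ribosomal RNA, per the labels' protocols. Tools listed per the submitters' processing notes are TopHat2 2.0.13, Cufflinks 2.2.1 and Cuffnorm 2.2.1, with TAIR10 as build and no settings. The authors deposited 1 FPKM per locus and library. Scaling between libraries and use of the strand in counting are not given in the sources. Of low values, 95.5% to 97.4% came to whole reads within 0.05.

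Of 32232 loci, 30924 matched the TAIR10.1 annotation by name, and the strand was inferred from the order of locus numbers. Values as log2(FPKM + 1) were tested by limma 3.58.1 (R 4.3.3, eBayes with a trend) over 14351 loci that reach 1 FPKM in 2 or more of all 8 libraries of the series, which include the 4 digested with RNase R. All 8 entered 1 fit of 4 groups with 4 residual degrees of freedom. Calls needed a two-sided Benjamini-Hochberg adjusted p under 0.05. Lists are described by counts and medians without a test.

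Replicate numbers pair the libraries through the shared run tag in the labels: the difference between replicates correlated between genotypes across the loci (Pearson's r = 0.482, across genes that are not independent, and 0.427 for the same difference over nuclear protein-coding genes).

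The loci compared, the 39 lists (8 of markers) and the tests were chosen with earlier results of these data known. The text names DBR1, genes from the 15 largest rises and falls of protein-coding genes called under both scalings without overlap between the genotypes, at a mean of at least 5 FPKM and 300 nt of exon, the 5 largest of other loci, and up to 6 genes per list by smallest p. A few further list members (PRL1, MS2, LHCB3, LHCB6, CESA6, AP3 and AG among them) and small RNA loci were chosen after their values were seen. Alternatives changed the pseudocount, filter, scaling, libraries and replicate block. Plots used Python 3.11.15 and matplotlib 3.10.9.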

Additional observations from a re-analysis of the deposited data

How the results depend on the processing

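Loci called higher and lower, 2017 and 472 as reported, numbered 1178 and 244 with a pseudocount of 0.1, 1021 and 208 with 0.01, 1507 and 350 without a filter, 931 and 171 at a mean of at least 5 FPKM (3960 loci, fewer tested), 755 and 436 with median ratios, 1005 and 851 with quantile normalization, 1779 and 1222 as TPM, and 997 and 614 once loci of the organelles and ribosomal RNA were dropped. With only the 4 libraries compared they were 4603 and 1117, with median ratios besides 2630 and 1942, and without loci under 300 nt 2030 and 474. A log2 fold change of at least 1 left 292 and 63. The replicate block gave 1869 and 445, and 5979 and 1590 with only the 4 libraries. Leaving out 1 library left 640 to 719 higher and 133 to 175 lower. Except for the smaller set of loci, the change required and the libraries left out, the cause was not tested.

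The 94 loci recomputed are only a part of those named. They leave out MIR414, PRP8A and the LHCB1 genes, whose lost calls are given above, and most of the named genes that did not pass. Of the 94, 92 were called, and 76 of these kept their call under all alternatives, which is no measure for all named genes. No value reversed among 1559, and 18 lost their call. The replicate block in the fit of all 8 libraries changed no call of these loci. Calls lost when those organelle and ribosomal loci were dropped, besides those given above, were those of GS2 (adjusted p = 0.293), GLU1 (0.323), TGG1 (0.55, and 0.0772 as TPM), GLDP1 (0.129), IAA7 (0.0761) and VSP2 (0.438), and with a pseudocount of 0.01 that of ATGA2OX1 (0.297). With 2 libraries a genotype, precision is limited by their number, and the part of counting error at low levels was not tested.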

Other observations

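Photorespiration, the salvage of the by-product that Rubisco makes with oxygen, runs through chloroplast, peroxisome and mitochondrion, and its genes were looked at after several had been seen among the rises with many introns. All 23 genes of enzymes and transporters assembled for it are counted, whatever their change. Of these, 21 reached 1 FPKM, and by limma 18 were higher and 0 lower (18 and 0 also at an unadjusted p under 0.05), at a median log2 fold change of 0.79 (0.62 after median ratio scaling), beside 14.8% higher and a median of 0.14 over all loci. Under both scalings 14 were higher. Because the list was assembled after values were seen, its count is a description without a test, and 5 of its genes stand in the lists above.

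HPR, the peroxisomal hydroxypyruvate reductase, was at 13.7 and 14.7 FPKM in Col-0 and at 41.7 and 44.3 in dbr1-2. GGT1, a glutamate:glyoxylate aminotransferase of the same organelle, was at 22.7 and 23.4 FPKM in Col-0 and at 57.0 and 55.1 in dbr1-2. Together with CAT2 these are the 3 genes whose call held in every alternative, and 9 others lost theirs only when organelle and ribosomal RNA loci were removed. The genes not called were the glycine decarboxylase subunits GLDH1 (17.7 and 18.04 FPKM against 20.05 and 18.8) and GLDH3, and mtLPD2. The summed level of the green tissue markers was higher in dbr1-2 as well, and its part in this result was not tested.

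Other promoter motifs gave smaller differences in percentage points, though not always as a ratio, as counts without a test. The sequence ACGTGTC, bound by factors of the abscisic acid response and overlapping the G-box when it follows a C, was in 4.31% of all windows, 7.63% of those of genes that rose by at least 1 on the log2 scale and 0 of 56 of those that fell by as much. The telo-box AAACCCTAA was in 2.06% of all windows and 0.424% (3 of 707) of those of genes higher under both scalings.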
